A study of Mus musculus with 24 samples.

Results

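The enzymes of the glycerol 3-phosphate route of triglyceride synthesis were followed through 6 genes, Gpd1, Gpam, Agpat2, Lpin1, Dgat1 and Dgat2. They were chosen by name, as the rows of the deposited expression table that carry these symbols, and all 6 were found among its 49452 genes. Each of them passed the filter on low values in every comparison.

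The study asked how the imprinted long non-coding RNA H19 acts in the formation of brown and white adipocytes. Stromal-vascular fraction (SVF) cells, the mixed non-adipocyte cells of fat that hold the adipocyte precursors, came from interscapular brown adipose tissue (BAT) or perigonadal visceral white adipose tissue (vWAT; epididymal in the labels) of young male C57BL/6 mice. They were nucleofected with a non-targeting control siRNA (siCtrl, siKO in the sample titles) or an siRNA against H19 (siH19, siH19_3 in the titles). All knockdown titles carry this same label, so the siH19 values rest on a single siRNA label. Polyadenylated RNA was sequenced at day 0 (d0) and day 3 (d3) of differentiation. This gave 8 groups of 3 libraries: BAT siCtrl d0, BAT siH19 d0, BAT siCtrl d3, BAT siH19 d3 and the same 4 for vWAT. All groups share the strain, and none carries a genetic alteration. For induction the methods list insulin, dexamethasone, rosiglitazone and 3-isobutyl-1-methylxanthine, naming the white depots, or indomethacin and triiodothyronine, naming BAT. Which of the former BAT cells also received is not clear from this wording. Differentiation went on with rosiglitazone for vWAT or triiodothyronine for BAT. Depot, culture medium and the library series of the sample descriptions therefore cannot be told apart. BAT from several animals was pooled where cell numbers required it, and nothing says that the libraries of a group came from separate animals or cultures, so p-values measure only the spread between these libraries.

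Triglycerides are built in the endoplasmic reticulum and at mitochondria by adding fatty acyl chains, carried on coenzyme A, to glycerol 3-phosphate. GPD1 makes glycerol 3-phosphate from a glycolytic intermediate, GPAM (GPAT1) attaches the first acyl chain, AGPAT2 the next, lipin 1 (encoded by Lpin1) removes the phosphate to give diacylglycerol, and DGAT1 or DGAT2 attaches the last chain. In adipose tissue the route fills the lipid droplet, and loss of AGPAT2 or of lipin 1 causes lipodystrophy.

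In the GRCm38 coordinates of the deposited table, Gpd1 (ENSMUSG00000023019) lies on the plus strand at chr15:99717515-99725005. The other 5 genes lie on minus strands, Gpam (ENSMUSG00000024978) at chr19:55069734-55099451, Agpat2 (ENSMUSG00000026922) at chr2:26593057-26604417, Lpin1 (ENSMUSG00000020593) at chr12:16535669-16589770, Dgat1 (ENSMUSG00000022555) at chr15:76502015-76511951 and Dgat2 (ENSMUSG00000030747) at chr7:99153658-99182719. All are protein-coding. Exons of Gpd1 share 384 bases with the antisense gene Gm16537 (median 1.66 FPKM, a read level per transcript length and library total) and exons of Agpat2 share 64 bases with Egfl7 on the other strand (up to 38.8 FPKM). Whether the kit kept strand is not clear, since the study's methods do not call it directional. The strand setting of the counting is not given in the sources used here.

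RefSeq promoter windows (GRCm38.p6; 250 bases before and 50 after an annotated start) were at hand for 3 of the 6 genes, Agpat2, Lpin1 and Gpam. A window of each is shown. Written 5′ to 3′ on the minus strand, on which all 3 genes lie, with matches to the searched motifs in capitals, they are at chr2:26604368-26604667, chr12:16610917-16611216 and chr19:55099428-55099727.
Agpat2: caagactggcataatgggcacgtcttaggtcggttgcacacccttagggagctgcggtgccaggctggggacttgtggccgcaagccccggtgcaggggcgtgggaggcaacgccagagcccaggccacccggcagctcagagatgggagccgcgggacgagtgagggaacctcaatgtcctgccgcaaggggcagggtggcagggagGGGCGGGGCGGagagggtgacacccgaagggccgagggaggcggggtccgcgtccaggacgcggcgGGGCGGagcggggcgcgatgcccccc
Lpin1: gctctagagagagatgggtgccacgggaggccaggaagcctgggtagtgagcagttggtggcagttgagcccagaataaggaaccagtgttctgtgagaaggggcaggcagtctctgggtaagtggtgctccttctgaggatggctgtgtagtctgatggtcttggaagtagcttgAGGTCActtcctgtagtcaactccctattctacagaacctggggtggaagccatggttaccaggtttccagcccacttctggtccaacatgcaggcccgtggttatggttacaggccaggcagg
Gpam: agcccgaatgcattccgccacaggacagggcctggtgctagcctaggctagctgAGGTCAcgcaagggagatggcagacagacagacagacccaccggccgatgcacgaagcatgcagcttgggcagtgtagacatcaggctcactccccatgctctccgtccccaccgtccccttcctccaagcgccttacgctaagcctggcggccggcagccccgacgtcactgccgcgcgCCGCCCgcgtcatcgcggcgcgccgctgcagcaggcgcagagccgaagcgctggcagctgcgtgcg
Both strands were searched for AGGTCA, the core of the elements bound by PPARγ and other nuclear receptors, and for its direct repeat, AGGTCANAGGTCA, which overlaps it. For C/EBP factors the pattern TTGCNNCAA was searched, and the E box, bound by SREBP and USF factors among others, was searched as CACGTG. The C/EBP pattern has a fixed spacing. C/EBP sites of another spacing, the palindromic site included, were not searched, so a lack of matches says nothing about them. The GC box of Sp factors was read as GGGCGG. The CCAAT box is its own letters, and the TATA box was taken as TATAAA. The Agpat2 window held 3 GC boxes and no other match, the first at 42 and the next at 37 bases before the start, sharing a base, and the last at base 25 after it. Lpin1 had AGGTCA at 74 bases before the start and no other match. In the Gpam window that covers the deposited gene start, AGGTCA stood at 196 and a GC box at 16 bases before the start. Of all 32841 windows of this length, 35.7% held a GC box and 16.3% held AGGTCA, so both are common, while 0.0396% held the direct repeat. The Lpin1 window lies upstream of the 5′ end of the gene in the deposited table, at chr12:16589770, and does not cover it. The further RefSeq window of Gpam, at chr19:55127189-55127488, held 1 CCAAT match. These matches are letters in a window and no measured binding.

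Depth could not be read from FPKM values directly. From the lowest steps of 5257 genes, the relative depth of the libraries was 0.839 to 0.999 in BAT and 1.00 to 1.15 in vWAT, so the depots also differ in depth. Libraries of a group correlated with Pearson's r of 0.988 to 0.991 over genes. The knockdown held in every group: H19 was 130 ± 27.1 FPKM (SD, n = 3) in BAT siCtrl d0 and 4.36 ± 1.33 in BAT siH19 d0, 89.8 ± 8.76 and 13.7 ± 2.79 at d3, 11.7 ± 0.528 and 1.21 ± 0.566 in vWAT d0, and 8.59 ± 0.361 and 0.528 ± 0.380 in vWAT d3. By the ratio of means, H19 was 29.9-fold lower with siH19 in BAT d0, 6.55-fold in BAT d3, 9.68-fold in vWAT d0 and 16.3-fold in vWAT d3. The size of the knockdown thus was not equal between the groups. Of 10 adipocyte markers, 9 averaged at least 1 FPKM in every group, day 0 included, and leptin (Lep) stayed near 0 throughout. Ucp1, which defines brown adipocytes, was listed at 0 in all vWAT groups, was near 0 in BAT at d0, and averaged 12.1 ± 3.79 FPKM in BAT siCtrl d3. Endothelial markers summed to at most 14.5 FPKM, skeletal muscle markers to 40.8 to 93.1 in BAT and at most 1.91 in vWAT, and mesothelial markers to 33.1 to 93.5 in vWAT and less than that in every BAT library. Macrophage and leukocyte markers summed to 98.6 to 162 FPKM at d0 and 79.2 to 158 at d3 in BAT. In vWAT their sums were 272 to 308 at d0 and 462.5 to 588 at d3. Since these are bulk samples, fewer cells of a type and less RNA per cell cannot be told apart in any value that follows.

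Among the 6 enzymes, the order of the levels changed with differentiation. At d0 Gpam was the highest and Lpin1 the lowest in all 12 libraries. At d3 Gpd1 was the highest in the 6 BAT libraries and Agpat2 in the 6 vWAT libraries, with Gpd1 next. Lpin1 was the lowest in all vWAT libraries and in BAT siH19 d3, and Dgat2 was the lowest in BAT siCtrl d3. Summed over the 6 genes, the level was 158 to 183 FPKM in BAT siCtrl d0 and 5536 to 5989 in BAT siCtrl d3, and 335 to 351 and 3233 to 3460 in vWAT siCtrl. The sum lies higher in vWAT before differentiation and higher in BAT after it, with no overlap.

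Across the 8 groups, each of the 6 enzymes was lowest in BAT siH19 d0. Gpd1, Agpat2, Lpin1 and Dgat1 were highest in BAT siCtrl d3, and Gpam and Dgat2 in vWAT siCtrl d3. When the groups were ordered by mean, most neighbours did not overlap. Those that did were vWAT siCtrl d3 and vWAT siH19 d3 for every gene, BAT siCtrl d0 and vWAT siH19 d0 for Gpd1, Gpam and Lpin1, BAT siCtrl d3 and BAT siH19 d3 for Gpam, and BAT siH19 d3 and vWAT siH19 d3 for Agpat2.

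**Figure D1:**
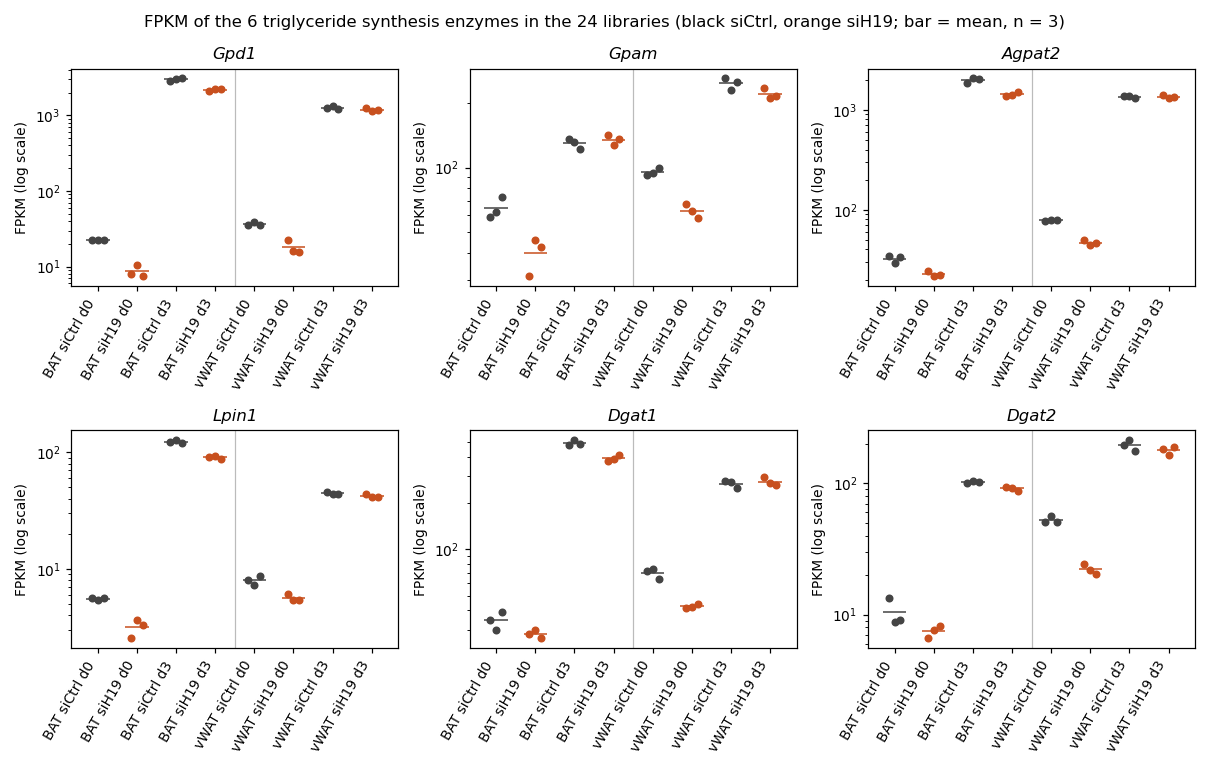
FPKM (log scale, each panel with its own range) of the 6 enzymes in each of the 24 libraries, grouped by depot, siRNA and day; points are libraries, bars the mean of 3. Every d3 library lies above every d0 library of its depot for each gene, and in vWAT d3 the siCtrl and siH19 points overlap for all 6.

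The question of the first comparison was how the route changes from d0 to d3. In BAT siCtrl, all 6 enzymes rose, against a background of 65.2% of genes tested that changed and 29.9% that rose. In BAT siH19, 6 of 6 rose, where 60.6% of genes changed and 30.8% rose. In vWAT siCtrl, 6 of 6 rose as well, where 50.3% changed and 26.3% rose, and in vWAT siH19 6 of 6, where 52.7% changed and 28.2% rose. A change means an adjusted p below 0.05 (limma on log2(FPKM + 1), Benjamini-Hochberg over all genes tested) and at least 1.3-fold. The median log2 fold change of the 6 was 4.03 in BAT siCtrl and 2.13 in vWAT siCtrl, where the median of all genes tested was -0.10 and 0.01.

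Gpd1, at the entry of the route, stood at 22.3, 22.5 and 22.7 FPKM in BAT siCtrl d0 and at 2841, 3056 and 3079 at d3, and had the largest rise of the 6 in each depot. The ratio of means was 133-fold, and the log2 fold change was 6.99 ± 0.041 (SE, n = 3 per group, adjusted p = 5.59e-09). In vWAT siCtrl the values were 35.6, 38.7 and 35.1 at d0 and 1264, 1335 and 1207 at d3, a 34.8-fold difference of means (log2 5.08 ± 0.055, adjusted p = 3.06e-08). Gpd2, the mitochondrial enzyme that oxidises glycerol 3-phosphate, rose far less in BAT (log2 1.25 ± 0.12), and the ratio of Gpd1 to Gpd2 went from 3.79 ± 0.707 to 191 ± 11.8 in BAT siCtrl and from 5.81 ± 1.37 to 166 ± 12.9 in vWAT siCtrl.

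Gpam, for the acylation of glycerol 3-phosphate, rose least. It was 58.9, 62.2 and 73.2 FPKM in BAT siCtrl d0 and 136, 132 and 122 at d3, a 2.01-fold difference of means (log2 1.00 ± 0.087, adjusted p = 4.83e-05). In vWAT siCtrl it went from 92.0, 94.4 and 99.2 to 260.3, 231 and 250.5, or 2.60-fold (log2 1.37 ± 0.055, adjusted p = 2.73e-06). It was thus the only one of the 6 whose ratio in siCtrl cells was larger in vWAT than in BAT. In siH19 cells the ratios were 3.38-fold (log2 1.75 ± 0.14) in BAT and 3.51-fold (1.79 ± 0.068) in vWAT, closer than their errors.

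Agpat2, for the next acylation, was at 34.1, 29.3 and 33.9 FPKM in BAT siCtrl d0 and 1856, 2061 and 2051 at d3 (61.4-fold, log2 5.90 ± 0.072, adjusted p = 1.42e-08). In vWAT siCtrl it went from 76.4, 79.7 and 78.9 to 1369, 1365 and 1302 (17.2-fold, log2 4.09 ± 0.035, adjusted p = 3.06e-08). In BAT only Gpd1 reached higher levels, and in vWAT none of the other 5 did. Lpin1, for the phosphatase step, rose from 5.57, 5.37 and 5.58 to 123, 126 and 121 in BAT siCtrl (22.5-fold, log2 4.26 ± 0.045, adjusted p = 1.10e-08). In vWAT siCtrl its values were 8.01, 7.23 and 8.60 at d0 and 45.5, 44.2 and 44.0 at d3 (5.61-fold, log2 2.35 ± 0.069, adjusted p = 7.52e-07), so that it stayed a low-level transcript beside its neighbours in the route.

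The acyltransferases of the last step rose by similar ratios within vWAT and by less similar ones in BAT. Dgat1 was 34.7, 30.0 and 38.8 FPKM in BAT siCtrl d0 and 479.6, 511 and 482 at d3 (14.2-fold, log2 3.80 ± 0.090, adjusted p = 1.14e-07), and 72.3, 74.3 and 64.5 against 278, 272 and 252 in vWAT siCtrl (3.80-fold, log2 1.91 ± 0.065, adjusted p = 1.37e-06). Dgat2 was 13.3, 8.82 and 9.13 in BAT siCtrl d0 and 100.1, 103 and 102 at d3 (9.78-fold, log2 3.19 ± 0.14, adjusted p = 1.69e-06), and 50.7, 56.5 and 50.8 against 196, 212 and 177 in vWAT siCtrl (3.71-fold, log2 1.87 ± 0.077, adjusted p = 2.90e-06). Dgat1 was above Dgat2 in all 24 libraries. The ratio of Dgat1 to Dgat2 was 3.42 ± 0.820 and 4.82 ± 0.116 in BAT siCtrl at d0 and d3, and 1.34 ± 0.0794 and 1.37 ± 0.0790 in vWAT siCtrl.

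Adipocyte markers moved with these rises, 9 of 9 tested being higher at d3 in each of the 4 comparisons; their summed level was 2533 to 2736 FPKM in BAT siCtrl d0 and 35070 to 36780 at d3, and 3440 to 3470 and 18220 to 19220 in vWAT siCtrl. Precursor markers were lower in 6 of 6 in BAT siCtrl, and in vWAT siCtrl 4 of 6 were lower and 1 was higher. Their summed level went from 1219 to 1345 FPKM at d0 to 384 to 429.7 at d3 in BAT siCtrl. In vWAT siCtrl the sum was higher at d3, at 706 to 786 FPKM against 626 to 685. The part of cell composition in the rises was not tested.

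Most steps also have isozymes, other genes whose products catalyse the same reaction. The list of 12 also held Mogat1 and Mogat2, whose products acylate monoacylglycerol and belong to none of these steps. Of the 9 that passed the filter, 5 were higher and 2 lower at d3 in BAT siCtrl, and 3 were higher and 2 lower in vWAT siCtrl; Gpat2, Mogat1 and Mogat2 did not pass. Because FPKM is per length, levels can be set side by side, and each member's share of the summed FPKM of its step was computed. Gpd1 against Gpd1l, a related dehydrogenase, held 76.7% ± 0.721 of the step in BAT siCtrl d0 and 99.6% ± 0.0213 at d3, and 82.4% ± 1.27 and 98.8% ± 0.194 in vWAT siCtrl. The share of Agpat2 among Agpat1 to Agpat5 went from 18.2% ± 1.42 to 86.0% ± 0.383 in BAT and from 37.9% ± 1.64 to 86.5% ± 0.295 in vWAT. Both genes thus went to near or above 86% of their step in either depot. The share of Lpin1 among the lipins went from 24.6% ± 1.59 to 94.9% ± 0.309 in BAT and from 33.2% ± 1.93 to 85.6% ± 0.897 in vWAT. Lpin3, which had held 49.8% ± 2.13 in BAT siCtrl d0, fell with a log2 fold change of -2.18 ± 0.098 (adjusted p = 1.84e-06).

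The step of Gpam went another way. Its share among Gpam, Gpat2, Gpat3 and Gpat4 went from 54.0% ± 1.88 in BAT siCtrl d0 to 33.0% ± 0.938 at d3, while in vWAT siCtrl it was 54.2% ± 1.45 and 60.1% ± 1.24. Gpat3, which encodes a glycerol 3-phosphate acyltransferase of the endoplasmic reticulum, went from 3.36 ± 0.176 to 136 ± 6.55 FPKM in BAT siCtrl (log2 4.97 ± 0.059, adjusted p = 1.39e-08) and from 2.81% ± 0.117 to 34.4% ± 0.746 of the step. In vWAT siCtrl it went from 20.5 ± 0.620 to 91.5 ± 1.02 FPKM (log2 2.10 ± 0.041, adjusted p = 2.01e-07) and from 11.7% ± 0.173 to 22.3% ± 0.892. Gpam, Gpat3 and Gpat4 therefore took nearly equal shares in BAT siCtrl d3 (33.0%, 34.4% and 32.5%), whereas Gpam remained the highest of them in vWAT. No test was made of the shares.

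**Figure D2:**
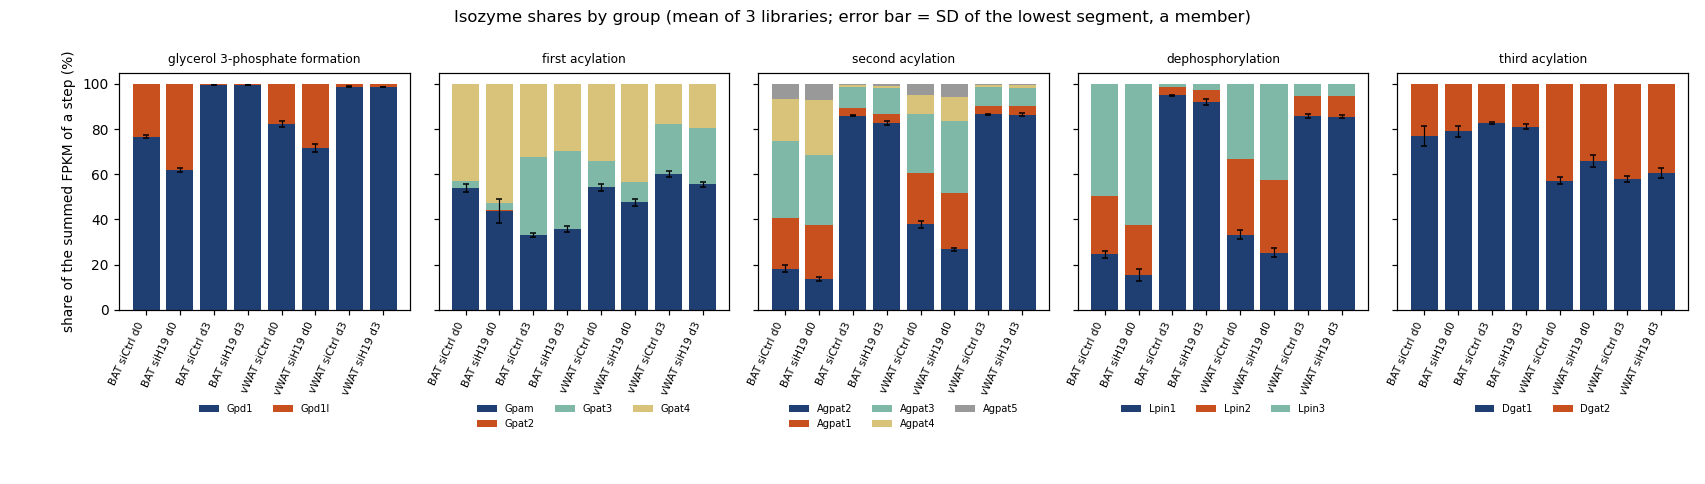
Share (%) of each gene in the summed FPKM of its enzymatic step, by group; stacked bars are means of 3 libraries, the lowest segment of each bar is a member and its error bar is the SD. Gpd1, Agpat2 and Lpin1 hold 82.7% or more of their step in all d3 groups, Gpam falls to 33.0% in BAT siCtrl d3, and Dgat2 holds 42.8% and 42.2% of the last step in vWAT siCtrl against 23.1% and 17.2% in BAT siCtrl.

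The depots were then compared within siCtrl. At d0 all 6 enzymes were lower in BAT than in vWAT, where 31.2% of genes tested differed and 21.0% were lower. The log2 fold changes ranged from -0.46 ± 0.080 for Lpin1 to -2.25 ± 0.15 for Dgat2, and adjusted p from 1.95e-05 to 0.00386. Dgat2, at 8.82 to 13.3 FPKM in BAT and 50.7 to 56.5 in vWAT, was 5.06-fold lower by means, and Agpat2 was 2.42-fold lower. At d3, 48.6% of genes tested differed, 16.5% being higher and 32.1% lower, and all 6 enzymes were among them, 4 higher and 2 lower in BAT. Higher in BAT were Lpin1 (2.77-fold, log2 1.45 ± 0.038), Gpd1 (2.36-fold, 1.24 ± 0.050), Dgat1 (1.84-fold, 0.87 ± 0.048) and Agpat2 (1.48-fold, 0.56 ± 0.049). Lower were Dgat2 (1.92-fold, -0.93 ± 0.066) and Gpam (1.90-fold, -0.92 ± 0.060). The turn from lower to higher thus held for 4 genes, while Gpam and Dgat2 stayed lower in BAT on both days.

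The test of this difference, the interaction of depot and day in siCtrl, was past the threshold for all 6, with a background of 53.0% of genes tested (24.9% with the larger value in BAT and 28.1% with the smaller). Gpd1, Agpat2, Lpin1, Dgat1 and Dgat2 had the larger rise in BAT, by 1.32 to 1.91 on the log2 scale, and Gpam the smaller one, by -0.37 ± 0.11 (adjusted p = 0.0165). Median rescaling of the libraries shifted all genes by -0.13 (log2) between depots at d0 and -0.14 at d3; under it Lpin1 at d0 was -0.35, less than 1.3-fold, and the other 5 were still lower. Adipocyte markers were lower in BAT in 5 of 9 at d0 and higher in 7 of 9 at d3; mesothelial markers were lower in 4 of 4 and 3 of 4, and macrophage and leukocyte markers (summed 129 to 162 FPKM in BAT siCtrl d0, 276 to 308 in vWAT) in 5 of 6 and 5 of 5. In the interaction of depot and day 9 of 9 adipocyte markers and 6 of 7 brown adipocyte markers were higher, and 5 of 6 precursor markers and 5 of 6 macrophage and leukocyte markers lower. The part of these in the differences was not tested.

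**Figure D3:**
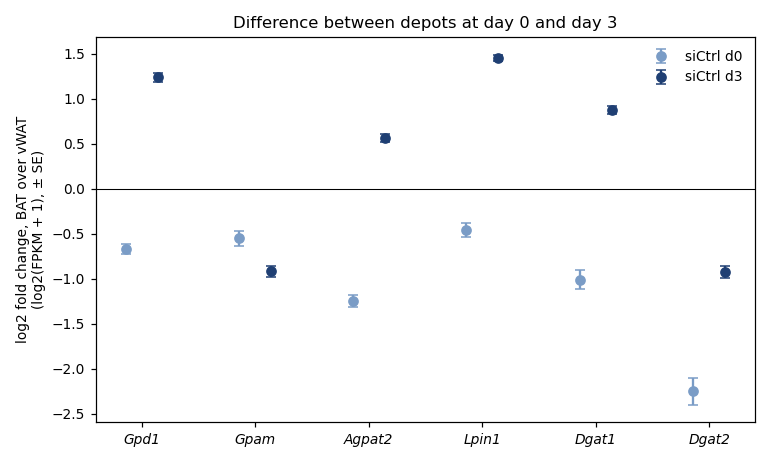
Log2 fold change, BAT over vWAT in siCtrl cells, of the 6 enzymes at d0 (light) and d3 (dark); error bars are the standard error from limma, n = 3 per group. All 6 lie below 0 at d0, from -0.46 to -2.25, and at d3 only Gpam and Dgat2 do.

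The main contrast of the study was siH19 against siCtrl. At d0 the enzymes were lower after the knockdown in both depots. In BAT d0, where 1.94% of genes tested changed and 1.32% fell, 3 of the 6 fell and the other 3 missed the threshold. Gpd1 was 7.91, 10.6 and 7.48 FPKM with siH19 against 22.3, 22.5 and 22.7, or 2.60-fold lower (log2 -1.30 ± 0.12, adjusted p = 0.0142). Lpin1 was 2.55, 3.67 and 3.28 against 5.57, 5.37 and 5.58, or 1.74-fold lower (-0.65 ± 0.12, adjusted p = 0.0412). Agpat2 was 24.6, 21.6 and 22.1 against 34.1, 29.3 and 33.9, or 1.42-fold lower (-0.49 ± 0.080, adjusted p = 0.0342). The remaining 3 had log2 fold changes in the same direction, of -0.69 ± 0.15 for Gpam (adjusted p = 0.0698), -0.42 ± 0.16 for Dgat2 (adjusted p = 0.219) and -0.28 ± 0.098 for Dgat1 (adjusted p = 0.187). Gpam was 31.2, 45.9 and 42.9 against 58.9, 62.2 and 73.2 FPKM, and its siH19 replicate 1 lay well below the other two. The BAT d0 calls were not stable: leaving out any 1 of the 6 libraries left 0 of them, or Gpd1 alone (without siH19 replicate 1 or 2), fitting without the filter on low values left 1, and fitting all 8 groups together gave 5.

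In vWAT d0, 5 of the 6 fell, where 1.53% of genes tested changed and 1.20% fell. Dgat2 was lowered most, to 24.5, 21.9 and 20.3 FPKM from 50.7, 56.5 and 50.8, or 2.37-fold (log2 -1.21 ± 0.082, adjusted p = 0.00453). Gpd1 was at 22.3, 16.2 and 15.8 against 35.6, 38.7 and 35.1 (2.01-fold, -0.99 ± 0.13, adjusted p = 0.0214). Agpat2 was 49.3, 44.7 and 46.2 against 76.4, 79.7 and 78.9 (1.68-fold, -0.73 ± 0.051, adjusted p = 0.00460). These siH19 values sit close together except for Gpd1, whose replicate 1 lay above the others. Dgat1 was 41.7, 42.3 and 44.3 against 72.3, 74.3 and 64.5 (1.65-fold, -0.70 ± 0.064, adjusted p = 0.00819), and Gpam 67.4, 63.1 and 58.2 against 92.0, 94.4 and 99.2 (1.51-fold, -0.59 ± 0.064, adjusted p = 0.0123). Lpin1, at 6.10, 5.41 and 5.41 against 8.01, 7.23 and 8.60, missed the threshold (-0.43 ± 0.088, adjusted p = 0.0703). Without siCtrl replicate 2 or siCtrl replicate 3 the count was 3, Gpd1 and Gpam being the genes no longer called, and Gpd1 was also lost without siCtrl replicate 1, siH19 replicate 2 or siH19 replicate 3 (adjusted p from 0.0600 to 0.0951 over these 5 fits) and without the filter (0.0708). With all 8 groups in 1 fit, Lpin1 passed as well. With the replicate number as a block in the fit, none of the 6 was called, and the limma adjusted p of the 5 genes was 0.0526 to 0.0763.

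Markers moved with the d0 values. In BAT d0, 8 of 9 adipocyte markers fell and their sum was 1139 to 1581 FPKM with siH19 against 2533 to 2736; in vWAT d0, 7 of 9 fell and the sum was 1898 to 2173 against 3440 to 3470. Among them, the log2 fold change of adiponectin (Adipoq) was -1.30 ± 0.17 in BAT and -0.58 ± 0.055 in vWAT, and that of the adipogenic factor Pparg -0.60 ± 0.049 and -0.46 ± 0.053. None of 6 precursor markers passed in either depot. Lyz2, a macrophage gene, fell in BAT (-0.63 ± 0.088, adjusted p = 0.0257) and stood at 0.00 ± 0.061 in vWAT. The part of these in the lower enzyme levels was not tested.

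Whether the d0 effect differed between depots was tested after the d0 values had been seen. The interaction of depot and siRNA at d0 was past the threshold for 0 of the 6 with limma, where 1.02% of genes tested passed and 1823 of 13708 had an unadjusted p below 0.05. Of the 6, 3 had an unadjusted p below 0.05. These were Dgat2, whose log2 fold change was smaller in size in BAT by 0.79 (95% confidence interval 0.37 to 1.22, adjusted p = 0.0879), Dgat1, by 0.42 (0.15 to 0.70, adjusted p = 0.154), and Agpat2, by 0.24 (0.03 to 0.46, adjusted p = 0.302). None of 9 adipocyte markers passed in this interaction. H19 itself did pass with limma, its siH19 effect being more negative in BAT by -2.07 ± 0.32 (adjusted p = 0.0208). The part of this difference in knockdown was not tested. Dgat2 was past the threshold without BAT siCtrl replicate 1, whose Dgat2 value of 13.3 FPKM stood above the 8.82 and 9.13 of the others, and Dgat2 and Dgat1 were past it when all 8 groups were fitted together.

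At d3 the depots went apart. In BAT d3, 3 of the 6 fell with siH19, where 8.57% of genes tested changed and 2.18% fell, and in each fit that left out a library the count was again 3. Gpd1 was 2074, 2201 and 2219 FPKM against 2841, 3056 and 3079 (1.38-fold lower; log2 -0.47 ± 0.045, adjusted p = 0.00287). Agpat2 was 1369, 1403 and 1509 against 1856, 2061 and 2051 (1.39-fold, -0.48 ± 0.057, adjusted p = 0.00425), and Lpin1 91.3, 92.2 and 87.5 against 123, 126 and 121 (1.37-fold, -0.45 ± 0.041, adjusted p = 0.00248). The groups were far apart relative to their spread. Dgat1, at 378, 388 and 411 against 479.6, 511 and 482, had an adjusted p of 0.00668 but was 1.25-fold lower, under the minimum fold (-0.32 ± 0.046). Dgat2 was 93.6, 92.8 and 88.1 against 100.1, 103 and 102 (-0.15 ± 0.041, adjusted p = 0.0508), also with no overlap. Gpam was 142, 127 and 136 against 136, 132 and 122, with overlapping groups and a log2 fold change of 0.05 (95% confidence interval -0.09 to 0.20, adjusted p = 0.593).

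Beside these, 1 of 9 adipocyte markers fell in BAT d3, the β3-adrenergic receptor Adrb3 (-0.52 ± 0.075), and the marker sum was 31890 to 34260 FPKM with siH19 against 35070 to 36780. Adipoq had a log2 fold change of -0.15 ± 0.053 and Pparg of 0.00 ± 0.059. Of 7 brown adipocyte markers 5 fell, Ucp1 by -1.75 ± 0.24 and Cidea by -1.95 ± 0.16 on the log2 scale. Of 5 precursor markers tested 4 were higher, with sums of 635 to 693 FPKM against 384 to 429.7, and of 4 macrophage and leukocyte markers 2 were lower. Their part in the lower enzyme levels was not tested.

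In vWAT d3, 0 of the 6 passed the limma test and all 6 had overlapping groups; 0.0305% of genes tested changed, or 4 of 13097, while 1315 had an unadjusted p below 0.05. Agpat2 was 1419, 1307 and 1344 FPKM with siH19 against 1369, 1365 and 1302, a log2 fold change of 0.01 with a 95% confidence interval of -0.09 to 0.11. The intervals of the others were -0.22 to 0.02 for Gpd1, -0.31 to -0.02 for Gpam, -0.19 to 0.03 for Lpin1, -0.10 to 0.18 for Dgat1 and -0.31 to 0.06 for Dgat2, and adjusted p ranged from 0.446 to 0.956. The interval of Gpam lay below 0 on its own, and that gene did not pass the adjustment over all genes. Adipocyte markers summed to 20160 to 21280 FPKM against 18220 to 19220, and none of 9 passed.

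**Figure D4:**
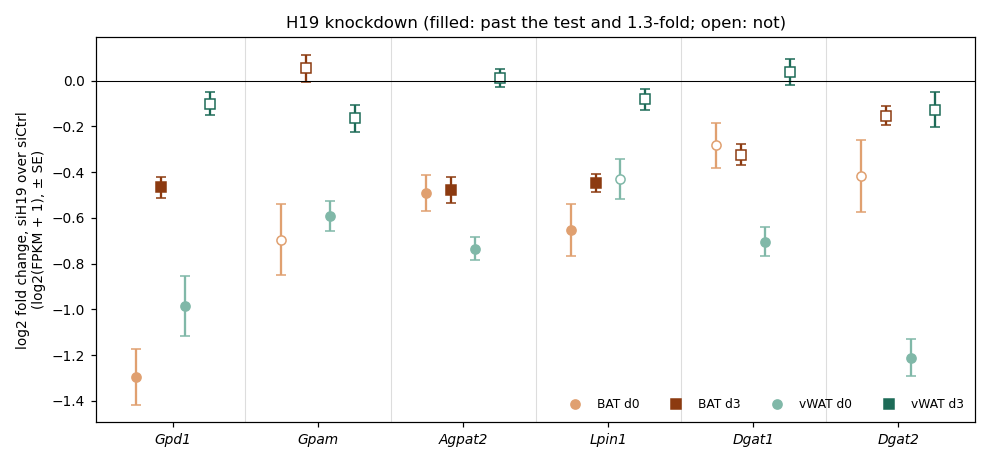
Log2 fold change, siH19 over siCtrl, of the 6 enzymes in BAT d0, BAT d3, vWAT d0 and vWAT d3; error bars are the standard error from limma, n = 3 per group, and filled symbols passed the test and 1.3-fold. The d0 values (circles) lie between -0.28 and -1.30, the BAT d3 values (brown squares) of Gpd1, Agpat2 and Lpin1 near -0.46, and the vWAT d3 values (green squares) between -0.16 and 0.04.

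The differences between these effects were tested as interactions. At d3, that of depot and siRNA was past the threshold for 4 of the 6, with the lower value in BAT (10.5% of genes tested passed, 3.52% in this direction): Agpat2 (-0.49 ± 0.073, adjusted p = 0.00312), Gpd1 (-0.37 ± 0.069, adjusted p = 0.00895), Lpin1 (-0.37 ± 0.055, adjusted p = 0.00328) and Dgat1 (-0.36 ± 0.077, adjusted p = 0.0153). With all 8 groups in 1 fit, Gpd1 missed the threshold (adjusted p = 0.131). The interaction was not past the threshold for Dgat2, at -0.03 (95% confidence interval -0.23 to 0.18), and Gpam, at 0.22 (0.02 to 0.41, adjusted p = 0.154). H19 itself was at 0.04 ± 0.24 (limma adjusted p = 0.939), on a scale that understates changes of low genes. In the same interaction 5 of 9 adipocyte markers, 5 of 7 brown adipocyte markers and 4 of 5 macrophage and leukocyte markers were lower, and 4 of 6 precursor markers were higher. Their part was not tested. The siCtrl and siH19 groups of each depot and day are shared between these interactions and the comparisons above, so the values are not independent of them.

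Between days, the siH19 effect in vWAT was smaller in size at d3 for 5 of the 6 (1.73% of genes tested passed, 1.46% in this direction), Lpin1 being at 0.35 (adjusted p = 0.116). The change was 1.09 ± 0.12 on the log2 scale for Dgat2, 0.75 ± 0.063 for Agpat2 and 0.74 ± 0.089 for Dgat1. In BAT it passed for 2 of the 6 (9.06% of genes tested passed, 7.79% in this direction), Gpd1 by 0.83 ± 0.13 (adjusted p = 0.00460) and Gpam by 0.75 ± 0.18 (adjusted p = 0.0287). For Agpat2 in BAT the effect was -0.49 at d0 and -0.48 at d3, with an interaction of 0.01 and a 95% confidence interval of -0.21 to 0.24. H19 itself passed in BAT with limma, its siH19 effect being less negative at d3 by 1.99 ± 0.29 (adjusted p = 0.00282). In vWAT it was at -0.12 (adjusted p = 0.902). The part of the weaker knockdown in BAT d3 was not tested. Gpam in BAT was no longer called without siCtrl replicate 2 or 3 of either day, without siH19 d3 replicate 1 or 3, without the filter (adjusted p = 0.0641) and under median rescaling (adjusted p = 0.0609). Gpam in vWAT (0.43 ± 0.091, adjusted p = 0.0475) was not called in any fit without a library other than siH19 d0 replicate 1, with adjusted p from 0.0547 to 0.120, nor without the filter (0.0998), under median rescaling (0.0711), with all 8 groups in 1 fit (0.193) or without the intensity trend (0.0841). Without siCtrl d3 replicate 3 or siH19 d3 replicate 1 in vWAT the count was 3, Gpd1 being lost as well. In the same interactions 8 of 9 adipocyte markers were higher in vWAT and 7 of 9 in BAT, and in BAT 4 of 6 precursor markers were higher and 4 of 7 brown adipocyte markers lower. Their part was not tested.

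The shares of the steps at d0 were also set side by side between siRNAs, without a test. Gpd1 held 62.1% ± 0.914 of its step in BAT siH19 d0 against 76.7% in siCtrl and 71.5% ± 1.89 against 82.4% in vWAT. Agpat2 held 13.6% ± 0.929 against 18.2% and 26.7% ± 0.533 against 37.9%. Lpin1 was at 15.4% ± 2.84 against 24.6% in BAT and 25.3% ± 2.06 against 33.2% in vWAT. Gpam was at 43.8% ± 5.36 against 54.0% and 47.6% ± 1.57 against 54.2%. In each of these pairs the member had the smaller share with siH19 and the groups did not overlap. The last step went otherwise. Dgat1 held 65.8% ± 2.79 with siH19 against 57.2% in vWAT, a larger share with no overlap, and 79.0% ± 2.32 against 76.9% in BAT, where the groups overlapped. The isozymes themselves showed few calls, with limma 0 of 9 in BAT d0 (4 with an unadjusted p below 0.05), 1 of 9 in vWAT d0 (Gpat3, -0.77 ± 0.080, adjusted p = 0.0110), 1 of 9 in BAT d3 (Lpin3, higher by 0.46 ± 0.11, adjusted p = 0.0338) and 0 of 9 in vWAT d3 (1 with an unadjusted p below 0.05).

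The genes around the route were taken from lists of their supply, assembly and side branches. Of 5 acyl-CoA ligases, which activate fatty acids, Acsl1 was the one that rose at d3, from 52.1 ± 5.71 to 3875 ± 175 FPKM in BAT siCtrl (log2 6.19 ± 0.083) and from 159 ± 11.1 to 1637 ± 72.7 in vWAT siCtrl (3.35 ± 0.060), while 3 others fell in each. Acsl1 was also the only ligase to fall with siH19, in BAT d0 (-1.23 ± 0.12, adjusted p = 0.0142) and in vWAT d0 (-1.13 ± 0.10, adjusted p = 0.00819). At d3 it was at -0.34 ± 0.043 in BAT (adjusted p = 0.00526), less than 1.3-fold, and at 0.13 ± 0.049 in vWAT (adjusted p = 0.444). Of 4 genes of glycerol and glycerol 3-phosphate supply, 4 rose in BAT siCtrl and 3 in vWAT siCtrl; Pck1, for the glyceroneogenic enzyme PEPCK, reached 30.6 ± 2.69 FPKM in BAT siCtrl d3 and 1.71 ± 0.359 in vWAT siCtrl d3. With siH19 in BAT d3, Pck1 (-1.09 ± 0.12, adjusted p = 0.00350) and Gpd2 (-0.80 ± 0.092, adjusted p = 0.00395) fell, and in the other 3 siH19 comparisons none of this list did. The ratio of Gpd1 to Gpd2 in BAT siH19 d3 was 253 ± 22.4, above the 191 ± 11.8 of siCtrl with no overlap, Gpd2 having been lowered by more than Gpd1. In vWAT d3 the ratios overlapped, at 187 ± 21.3 and 166 ± 12.9. At d0 the ratio was lower with siH19, again with no overlap, at 1.20 ± 0.190 against 3.79 ± 0.707 in BAT and 3.23 ± 0.636 against 5.81 ± 1.37 in vWAT.

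Among 5 lipin regulators and droplet assembly genes, 4 passed the filter. Fitm2, which partitions triglyceride into droplets, and Bscl2, which encodes seipin, rose at d3 in BAT siCtrl (log2 3.38 ± 0.082 and 2.19 ± 0.059) and in vWAT siCtrl (1.88 ± 0.045 and 1.57 ± 0.037), and Cnep1r1, of the lipin phosphatase complex, fell in BAT (-0.72 ± 0.074). Fitm2 fell with siH19 in vWAT d0 (-0.53 ± 0.057, adjusted p = 0.0123), the sole call of this list in the 4 siH19 comparisons. Of 10 genes that draw phosphatidic acid or diacylglycerol toward phospholipids or turn them over, 4 rose and 4 fell in BAT siCtrl, and 3 rose and 2 fell of 9 tested in vWAT siCtrl. Chpt1, a cholinephosphotransferase that competes with the DGATs for diacylglycerol, rose with log2 fold changes of 3.59 ± 0.039 and 2.34 ± 0.043. With siH19 it fell in vWAT d0 (-0.57 ± 0.058, adjusted p = 0.0102) and in BAT d3 (-0.42 ± 0.048, adjusted p = 0.00385). In BAT d3 Pcyt2, of phosphatidylethanolamine synthesis, fell too (-0.44 ± 0.056) and the lipid phosphatase gene Plpp1 rose (0.51 ± 0.083).

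Over the 24 libraries, the enzymes differed in how alike their patterns were, with libraries of a group as points that share depot, day and siRNA. On the log2(FPKM + 1) scale the correlation was highest for Gpd1 and Agpat2 (Pearson's r = 0.994) and lowest for Gpam and Lpin1 (0.795), and Gpam was closest to Dgat2 (0.959). Among all genes passing the filter, the 3 most alike were Bscl2 (0.999), Car5b and Dbi for Gpd1; Dapk1 (0.988), Lrg1 and Klf15 for Gpam; Scd2 (0.998), Atp5g3 and Dbi for Agpat2; Adipor2 (0.999), Pdhb and Trap1 for Lpin1; Mpc2 (0.999), Aldh1a7 and Echs1 for Dgat1; and Calcoco1 (0.989), Pnpla3 and Mccc1 for Dgat2. The best match of Gpam and of Dgat2 was thus lower than that of the other 4.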

How the data were processed

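RNA of 24 libraries (8 groups of 3) was sequenced after poly(A) selection. The study's methods do not call the kit of these libraries directional. The deposited table holds FPKM per gene made by the authors with QuickNGS, an Ensembl annotation and the GRCm38 build; the submitters' processing notes name TopHat2 2.0.10, Cufflinks 2.2.1, FastQC 0.10.1, STAR, DESeq2 and R 3.2.2. The table itself does not name its unit, and it gives no counts, so sampling depth is known only in relative terms and gives no interval. Columns of no sample of the series numbered 0. Read length and pairing differ between the labels and the study's methods and are not stated here.

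Groups came from the sample titles and siRNA labels. FPKM were analysed as log2(FPKM + 1) with limma 3.58.1 (R 4.3.3; moderated test with intensity trend) on the groups compared, for genes with at least 1 FPKM in at least 3 fitted libraries, with Benjamini-Hochberg adjustment over all genes tested; the script was tested on simulated data. Fold changes on this scale understate changes of low genes. In all, 10 pairwise comparisons and 4 interactions were fitted, and 1 interaction was added after the data were seen. Members and lists were chosen with earlier results of these data known. Named were all members, up to 4 called genes per other list with the largest change, 3 genes of most alike pattern per member, and H19. H19 and Gpat3 (listed as Agpat9) were named from Ensembl identifiers. Alternatives were the pseudocount, the filter, median rescaling, 1 fit over 8 groups, no minimum fold, no trend, a replicate block and leaving out each library.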

Additional observations from a re-analysis of the deposited data

Results flagged for a closer look

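The results below are differences between groups in the effect of the same contrast, each past an adjusted p of 0.05 in limma, with no explanation weighed. Groups of 3 libraries are too small for a check of single outlying libraries.

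The change from d0 to d3 in siCtrl cells was larger in BAT than in vWAT by 1.91 (log2) for Gpd1, 1.91 for Lpin1, 1.89 for Dgat1, 1.81 for Agpat2 and 1.32 for Dgat2, and smaller by -0.37 for Gpam. The siH19 effect at d3 was lower in BAT than in vWAT by -0.49 for Agpat2, -0.37 for Gpd1, -0.37 for Lpin1 and -0.36 for Dgat1. That of Gpd1 missed the threshold with all 8 groups in 1 fit (limma adjusted p = 0.131). The siH19 effect in vWAT was less negative at d3 than at d0 by 1.09 for Dgat2, 0.89 for Gpd1, 0.75 for Agpat2, 0.74 for Dgat1 and 0.43 for Gpam. That of Gpam had an adjusted p of 0.0475 and was past the threshold in 1 of the 12 fits that left out a library. In BAT the same held by 0.83 for Gpd1 and 0.75 for Gpam, the latter in 6 of 12 such fits.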

How the results depend on the processing

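All 6 members kept their call in the d3 against d0 comparisons, the d3 depot comparison and the interaction of depot and day under every alternative run; in the d0 depot comparison Lpin1 fell under 1.3-fold with median rescaling (-0.35). The 3 calls of siH19 in BAT d3 and the 4 of the interaction at d3 were unchanged in number when any library was left out. With all 8 groups in 1 fit, Gpd1 was not called in the interaction at d3 (limma adjusted p = 0.131). Without a minimum fold, Dgat1 was also called in BAT d3.

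The 3 calls of siH19 in BAT d0 became 1 without the filter, 5 with all 8 groups in 1 fit and 0 to 1 without a library. The 5 in vWAT d0 became 6 with all 8 groups in 1 fit and 3 to 5 without a library. The 2 calls of the day interaction in BAT became 1 without the filter, 1 with median rescaling and 1 to 2 without a library, and the 5 in vWAT became 4, without Gpam, under no filter, median rescaling, all 8 groups in 1 fit, no intensity trend and the block, and 3 to 5 without a library. The added d0 interaction had 0 calls, 2 with all 8 groups in 1 fit and 0 to 1 without a library. The cause of these shifts was not tested.

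With the replicate number as a block, 0 members were called in BAT d0 and 0 in vWAT d0, and the other counts stayed within 1.5 times. Deviations of same-numbered libraries correlated from -0.113 to 0.102 over 84 pairs. These values show no pairing by number but cannot exclude it, since differently numbered libraries were not compared.

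Signs turned only for values near 0 that were never called. Their log2 values over the fits without a library ran from -0.021 to 0.038 for Agpat2 and from -0.012 to 0.073 for Dgat1 (siH19 in vWAT d3), from -0.089 to 0.040 for Dgat2 (interaction of depot and siRNA at d3), from -0.21 to 0.062 for Gpam (the same at d0), and from -0.037 to 0.081 for Agpat2 and -0.13 to 0.052 for Dgat1 (day interaction in BAT). Median rescaling gave -0.093 for Agpat2 in the last; it shifts that interaction by 0.11 for all genes. Without counts, precision rests on 3 libraries per group.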
